A study of Mus musculus with 28 samples.

Results

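The 12 normal mouse brain arrays were compared by the region of the brain that their transcripts came from, which the labels do not state. The arrays were divided by 1 measured value, the deposited intensity of the brightest probe set for Gabra6, the GABA-A receptor subunit of cerebellar granule neurons. The sides were therefore chosen by a readout of the same arrays. Arrays above 1000 were called Gabra6-rich (3 arrays, B2, C5 and Z2) and arrays at 1000 or less Gabra6-poor (9 arrays, A6, B1, B4, B6, B7, C1, C2, C3 and C6), out of 28 arrays in the series. Every gene of this contrast counts as used by that choice, so the differences between the sides are descriptions, without a test. The arrays nearest the threshold were B2, above it at 1740.4, and C6, far below it at 116.3, with none between them.

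The series measured mouse medulloblastomas, gliomas and normal brain on Affymetrix 430 2.0 arrays, a one-colour array on which a probe set, a group of short probes, reports a transcript as an intensity. Of the Gabra6-rich arrays, B2 is labelled hGFAP-Cre::p53-/-; Rictor+/-, C5 hGFAP-Cre::p53-/-; Rictor-/- and Z2 normal mice with wild-type p53. Of the Gabra6-poor arrays, 4 are labelled Rictor+/- (B1, B4, B6 and B7) and 4 Rictor-/- (C1, C2, C3 and C6), all with hGFAP-Cre::p53-/-, and A6 carries hGFAP-Cre::p53-/- alone. Thus 11 of the 12 arrays share the loss of p53 and the hGFAP-Cre transgene, a recombinase driven in neural progenitors and glia, and Z2 alone lacks them. Wild-type genotype and the particulars of Z2 cannot be told apart. Rictor encodes the subunit that defines the kinase complex mTORC2. The sources used here give neither age nor dissection. No label states that separate animals were used, so errors and p-values cover the spread between arrays, part of which may be technical.

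The cerebellum is built on a few repeating cell types. Granule neurons are small excitatory cells that fill the inner layer and carry GABA-A receptors with the alpha-6 subunit. Purkinje cells are the large inhibitory output neurons, and Bergmann glia are the radial astrocytes around them. The forebrain comprises the cortex and hippocampus, with pyramidal neurons, the striatum, with dopamine-receptive projection neurons, the olfactory bulb, the thalamus and the hypothalamus. Transcription factors that divide the embryonic neural tube, such as EN2 at the border of midbrain and hindbrain and TBR1 and the DLX factors in the forebrain, often remain expressed in the adult region.

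Several arrays stood apart before any gene was compared. The 3' to 5' ratio of actin, which is higher in degraded RNA, was 6.01 in B2, 3.45 in C5 and 6.21 in Z2, against 1.99 to 4.95 in the Gabra6-poor arrays. The same ratio for Gapdh was 2.58, 1.18 and 1.88, against 0.972 to 1.52. RNA quality thus moved with B2 and Z2, and its part in the results was not tested. Across genes, arrays correlated at 0.914 to 0.963 within the Gabra6-rich side, at 0.948 to 0.982 within the Gabra6-poor side and at 0.856 to 0.938 between the sides. B2 was the Gabra6-rich array closest to the other side (median r 0.922 over 9 pairs) and Z2 the farthest (median r 0.871). Within the Gabra6-poor side, C2 carried proliferation genes that are described with the smaller regions. Expression of a bulk piece mixes cells, so fewer cells of a type and less RNA per cell cannot be told apart anywhere in these data.

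Of 13927 genes tested, 439 had all 3 Gabra6-rich arrays above all 9 Gabra6-poor arrays with means at least 1 apart on the log2 scale, which is 3.15%, and 630 lay below in the same way, which is 4.52%. Such genes are called separated. Differences are means of log2 values after 6.3 was added to each intensity, Gabra6-rich minus Gabra6-poor, and understate the change of dim genes. At a difference of at least 2, 100 genes were separated upward and 201 downward, and at a difference of at least 4 the counts were 13 and 15. The median difference of all genes tested was 0.04. Without B2 the total of separated genes was 1673 in place of 1069. It was 2287 within the arrays of title prefix YZ2, where Z2 was the single Gabra6-rich array, and 1792 among the arrays labelled Rictor-null, where C5 was the single one. Fewer arrays on a side make separation easier to meet. Among the Rictor-heterozygous arrays, where B2 was the single Gabra6-rich one, the balance turned, with 710 genes upward and 638 downward. Of the 1069 genes, 64.5% were separated the same way among those arrays, 73.1% with a pseudocount of 25, 75.8% on the median of probe sets and 95.6% without B2. None was separated the opposite way on the median of probe sets or under quantile normalization. The other alternatives (pseudocounts, filters, sizes and fewer arrays) could not reverse a separated gene, so nothing is read from them on direction.

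Granule neuron genes were higher in the Gabra6-rich arrays. Gabra6 itself had an intensity of 1740.4 in B2, 4153 in C5 and 4918 in Z2, and 1.1, 8.2 and 116.3 as the lowest, median and highest of the Gabra6-poor arrays, a difference of 7.69 that only restates the choice. Cbln3, a secreted cerebellin of granule neurons, had 778.3, 2372 and 2869 in B2, C5 and Z2, against 4.4, 8.1 and 55.8. The highest Gabra6-poor value of both genes was that of C6. Fat2, a giant cadherin of granule neurons and their parallel fibres, had 127.0, 736.4 and 1024 against 1.0, 2.5 and 18.1, and B2 was the lowest of the 3 for all of these genes.

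The promoters of 2 granule neuron genes and 2 forebrain genes are shown because the members of those groups differed in opposite directions along the same division. Each is the 250 bases before the annotated start, 5′ to 3′ on the gene's strand, from RefSeq on build GRCm38.p6, with capitals marking copies of TAATTA, a core letter string of homeodomain binding sites. They lie at chr11:42321073-42321322 on the minus strand for Gabra6, chr14:55884257-55884506 on the minus strand for Cbln3, chr6:55681264-55681513 on the minus strand for Neurod6, a factor of forebrain pyramidal neurons, and chr2:61804203-61804452 on the plus strand for Tbr1, a factor of early cortical neurons.
Gabra6: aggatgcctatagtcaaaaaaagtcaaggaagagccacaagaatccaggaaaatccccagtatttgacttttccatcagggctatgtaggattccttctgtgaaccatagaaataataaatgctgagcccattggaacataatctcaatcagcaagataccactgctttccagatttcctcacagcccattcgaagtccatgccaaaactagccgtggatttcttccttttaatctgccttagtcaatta
Cbln3: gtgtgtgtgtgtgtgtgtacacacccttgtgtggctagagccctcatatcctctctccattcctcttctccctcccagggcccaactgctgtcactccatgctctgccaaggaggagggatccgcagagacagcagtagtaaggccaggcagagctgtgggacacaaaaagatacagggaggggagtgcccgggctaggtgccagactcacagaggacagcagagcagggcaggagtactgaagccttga
Neurod6: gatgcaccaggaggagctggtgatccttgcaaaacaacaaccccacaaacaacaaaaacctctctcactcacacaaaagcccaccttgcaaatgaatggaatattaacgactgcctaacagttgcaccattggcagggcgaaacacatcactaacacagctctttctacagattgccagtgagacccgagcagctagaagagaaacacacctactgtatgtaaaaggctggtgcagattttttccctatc
Tbr1: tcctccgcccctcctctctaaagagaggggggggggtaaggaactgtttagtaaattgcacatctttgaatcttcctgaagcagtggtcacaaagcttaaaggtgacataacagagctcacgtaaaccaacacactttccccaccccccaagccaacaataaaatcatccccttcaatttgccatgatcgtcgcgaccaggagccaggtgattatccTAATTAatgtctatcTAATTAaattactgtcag
TAATTA, which reads the same on both strands, occurred 2 times before Tbr1 and not in the other 3 windows. CAGATG, a letter string bound by proneural factors of the NEUROD and ATOH1 type, was searched on both strands (CAGATG and CATCTG) and is in none of the 4 windows, which says nothing about those factors. Among the genes tested with a promoter in the table (11188 of 13927), 2.4% held TAATTA and 10.3% held CAGATG in these 250 bases. The shares were 3.22% and 11.4% of 342 genes separated upward, and 2.25% and 12.7% of 489 separated downward. The median GC content of the same windows was 59.6% in all genes tested and in the upward set, and 62.0% in the downward set.

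**Figure D1:**
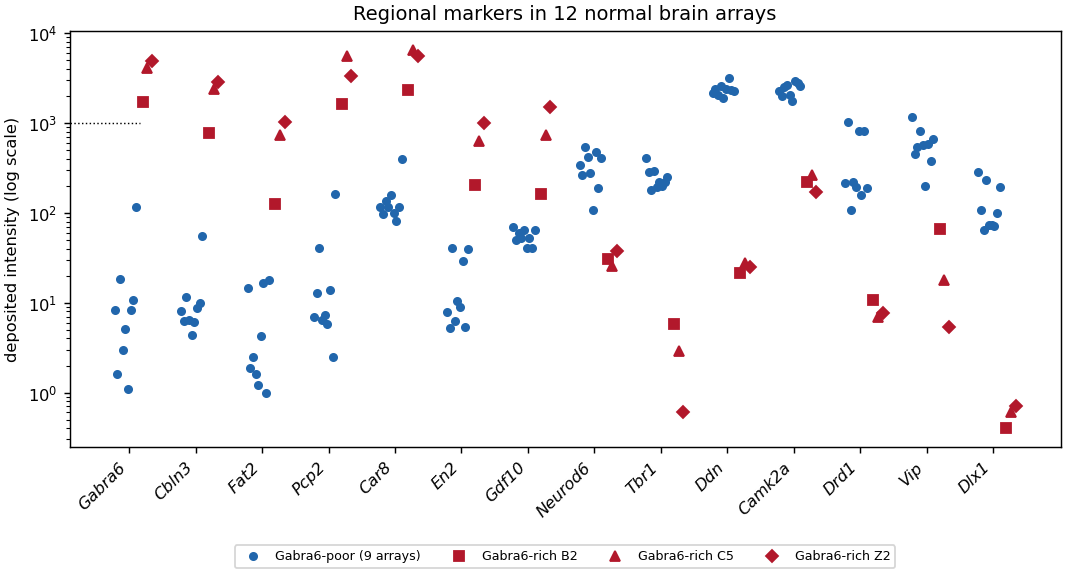
Deposited intensity (log scale) of 14 regional marker genes in the 12 normal brain arrays, 1 point per array; blue circles are the 9 Gabra6-poor arrays and red symbols B2, C5 and Z2, and the dotted line over Gabra6 is the threshold of 1000. For every gene drawn the red and blue points do not overlap, and C6 is the highest blue point for Gabra6, Cbln3, Pcp2 and Car8.

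Of 20 listed granule neuron genes 19 were on the array and tested; 13 were separated upward and none downward, with a median difference of 2.5. This list and those below were chosen with these arrays' results known, and the rule used the contrast. Nothing is therefore read from the share of any list against the 3.15% upward and 4.52% downward of all genes tested. Crtam, an immunoglobulin-type adhesion molecule, had 412.8, 859.6 and 960.8 in B2, C5 and Z2 against 0.9, 5.5 and 34.0, and Cbln1, the cerebellin that bridges parallel fibres to Purkinje cells, 1102, 2588 and 3088 against 44.7, 91.3 and 187.1. The zinc-finger factors of the granule lineage followed with smaller differences, 2.37 for Zic1, 2.81 for Zic2 and 2.91 for Zic5. Pax6, another factor of the lineage, was separated by 2.27 on its brightest probe set, while the 3 others above the filter on low values gave 0.47 to 1.11 and were not separated. The other 6 members overlapped. Neurod1, a proneural factor of granule cells, had 904.4, 3232 and 3831 in the Gabra6-rich arrays but also 944.1 in C2, while its other probe set was separated upward by 3.47. Eomes, a factor of unipolar brush cells and of olfactory bulb projection neurons, had 42.5, 171.0 and 139.4, while A6 had 155.3 and C6 117.5.

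Purkinje cell genes were separated upward in 13 of the 15 tested, beside 3.15% of all genes tested, with a median difference of 2.03. Pcp2, a G-protein regulator named for Purkinje cells, had 1637 in B2, 5657 in C5 and 3393 in Z2, against 2.5, 7.3 and 163.8 as lowest, median and highest. Car8, a carbonic anhydrase-related protein that binds the IP3 receptor, had 2361, 6503 and 5665 against 81.0, 116.9 and 400.0, the last in C6. Ppp1r17, a phosphatase inhibitor and substrate of cGMP-dependent kinase, had 450.9, 1471 and 1653 against 6.0, 10.6 and 39.2. For these 3 genes B2 was again the lowest and the sides were far apart, with differences of 7.24, 5.01 and 5.72. Slc1a6, the Purkinje cell glutamate transporter EAAT4, varied among the Gabra6-rich arrays, at 143.7, 1058 and 277.9. Calcium buffers that forebrain interneurons share had smaller differences, 1.59 for Calb1 and 2.71 for Pvalb. Lhx5 was separated too (1.93) but lay below the filter on low values and is not among the 15. Foxp2, a factor shared by Purkinje cells and striatal neurons, was separated downward: it had 87.2, 139.7 and 80.2 in B2, C5 and Z2 and reached 480.4 in B1, 450.7 in C3 and 348.5 in C1. The other 4 Foxp2 probe sets above the filter were lower on average too (-0.57 to -1.33) but overlapped. Pcp4, which is also a striatal gene, overlapped.

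Bergmann glia genes differed less. Gdf10, a secreted factor of the BMP family, had 161.5, 744.8 and 1505 in B2, C5 and Z2 against 40.6, 53 and 70.2, a difference of 3.25 (SE 0.94). Hopx, Gria4, Ptch1 and Slc1a3 were also separated upward, by 1.84, 1.88, 1.41 and 1.02, and Gli1 and Gria1 overlapped. General astrocyte genes did not move together: of 13 tested only S100b, a calcium-binding protein, was separated (1923.8, 1808 and 2193 against 459.4, 743.9 and 1132). Gfap overlapped, at 331.0, 41.8 and 85.1 against 30.9 to 178.5.

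Patterning genes of midbrain and hindbrain were separated upward in 8 of 14 tested and downward in none, beside 3.15% and 4.52% of all genes tested. En2, which sets the midbrain-hindbrain border, had 202.5, 631.4 and 1015 against 5.3, 9.0 and 40.3. Tfap2b, a factor of inhibitory cerebellar progenitors, had 95.8, 146.2 and 289.9 against 3.6, 12.4 and 41.2. Cnpy1, a gene of the canopy family that is among the 10 largest upward differences, had 129.1, 427.3 and 1049 against 0.0, 2.0 and 13.0. Irx3, of the Iroquois family of posterior neural factors, was nearly level among the 3 arrays at 156.0, 159.7 and 136.2 against 11, 28.9 and 72.3. Hox genes, which mark the hindbrain and spinal cord, were high in B2 alone, so they were not separated: Hoxb3 had 186.2 in B2, 18.4 in C5 and 1.4 in Z2 against at most 8.2, and Hoxb5, below the filter, 252.4, 3.9 and 0.5 against at most 0.6.

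**Figure D2:**
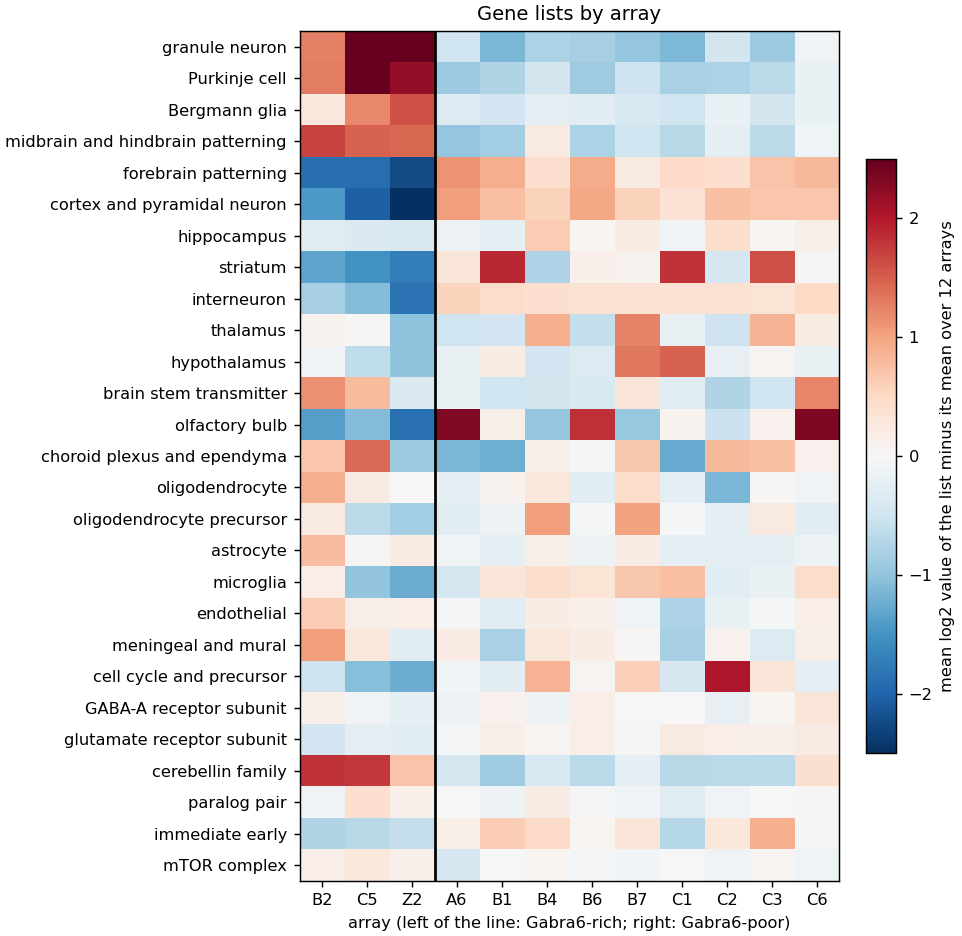
Mean log2 value of each of 27 gene lists in each normal brain array, minus the list's mean over the 12 arrays; red is above and blue below that mean, values beyond 2.5 in either direction have the end colour, and the black line divides the 3 Gabra6-rich arrays from the 9 Gabra6-poor arrays. The granule neuron score ran from 7.83 to 9.37 in the Gabra6-rich and 5.43 to 6.49 in the Gabra6-poor arrays, and the striatum score stood out in B1, C1 and C3.

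Forebrain patterning genes showed the reverse. Of 17 tested 13 were separated downward and none upward, beside 4.52% and 3.15% of all genes tested, with a median difference of -2.80. As the division used the contrast, nothing is read from this count. Tbr1 had 5.8, 2.9 and 0.6 in B2, C5 and Z2, against 180.3, 223.6 and 409.7 as lowest, median and highest of the Gabra6-poor arrays. Dlx1, a homeodomain factor of inhibitory forebrain neurons, was at 0.4, 0.6 and 0.7 against 64.7, 99.4 and 283.4. Lhx2, a cortical selector factor, had 16.1, 12.1 and 1.9 against 123.1, 229.1 and 296.0, and Bcl11b, a factor of deep-layer cortical and striatal neurons, 65.2, 38.1 and 13.6 against 543.6, 856.1 and 1124. Neurod6 was separated as well, with 30.8, 25.7 and 38.1 against 108.7, 337.8 and 538.3, its lowest value among Gabra6-poor arrays being that of C1. Its relative Neurod2, which granule neurons also express, overlapped at 132.7, 319.5 and 276.1 against 95.9 to 223.7.

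Genes of the cortex and pyramidal neurons were separated downward in 14 of 18, beside 4.52% of all genes tested. Ddn, the postsynaptic protein dendrin, had the largest downward difference of all separated genes at -6.25 (SE 0.11): 21.7 in B2, 27.8 in C5 and 24.8 in Z2, against 1891, 2366 and 3167. Egr3, an activity-regulated zinc-finger factor, had 30.6, 6.5 and 6.9 against 665.1, 1097 and 1669 on its brightest probe set. Its other probe set above the filter on low values gave a difference of 0.23 and was not separated. Crym, a thyroid hormone-binding protein, had 55.0, 12.8 and 0.9 against 382.8, 825.6 and 1052. Camk2a, the alpha subunit of the calcium-dependent kinase of excitatory synapses, had 222.5, 267.5 and 172.3 against 1782, 2556 and 2944. Other large downward differences were those of Gda, the guanine deaminase, at -4.65, of Icam5, a dendritic adhesion molecule of the telencephalon, at -4.22, of Kcnf1, a potassium channel subunit, at -4.28, and of Pde1a, a calcium-dependent phosphodiesterase, at -4.16. Lamp5 overlapped only through B2, which had 922.0, against 113.8 in C5, 1.4 in Z2 and 258.6 to 856.7 in the Gabra6-poor arrays. Nptx1, a pentraxin of excitatory synapses, overlapped at 912.6, 1964 and 1965 against 812.4 to 1698. Among the hippocampal genes the division was partial, with 4 of 10 downward (Spink8, Wfs1, Ociad2 and Fibcd1), 1 upward (Tdo2) and 5 overlapping or under a difference of 1.

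Striatal genes were separated downward in 7 of 13, beside 4.52% of all genes tested, and here the Gabra6-poor arrays differed among themselves. Drd1, the D1 dopamine receptor of direct-pathway neurons, had 10.6, 7.0 and 7.6 in the Gabra6-rich arrays, 1027 in B1, 826.2 in C1 and 820.6 in C3, and 107.0 to 223.7 in the other 6. Gpr6, a receptor of indirect-pathway neurons, had 0.2, 6.0 and 0.4, then 544.1, 577.4 and 414.3 in B1, C1 and C3, and 33.3 to 114.7 in the others. The same 3 arrays were highest for Drd2, Rgs9, Pde10a and Tac1. Drd2, Pde10a, Penk and Tac1 overlapped between the sides, since their lowest Gabra6-poor values lay among the Gabra6-rich ones. Striatal genes thus varied within the Gabra6-poor side as well as between the sides.

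Interneuron genes were separated downward in 7 of 12, beside 4.52% of all genes tested. Vip, a neuropeptide of cortical interneurons, had 67, 17.8 and 5.4 against 199.1, 566.1 and 1165, and Lhx6, a factor of interneurons born in the ventral forebrain, 5.6, 3.5 and 10.1 against 38.2, 58.0 and 117.9. For Sst, the somatostatin gene, B2 was the Gabra6-rich array nearest the other side at 255.9, with 122.0 in C5, 16.4 in Z2 and 569.8 to 868.7 in the Gabra6-poor arrays. Kcnc2, a fast potassium channel, had the same order, 412.9, 157.2 and 9.1 against 508.4 to 841.6. Gad1, the GABA-synthesising enzyme that Purkinje cells and forebrain interneurons share, overlapped at 2389, 3504 and 3417 against 2473 to 3534.

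Receptor and channel families contained members that differed in opposite directions. Among GABA-A receptor subunits Gabra6 was higher and Gabra4, a forebrain subunit, lower, with 111.3, 130.9 and 153.2 in B2, C5 and Z2 against 459.8, 657.5 and 834.4. Gabra5, a hippocampal subunit, had 161.4, 25.8 and 8.8 against 155.1 to 395.8 and overlapped through B2 alone. In the NMDA receptor Grin2c, the GluN2C subunit of mature granule neurons, had 133.0, 468.0 and 608.0 against 34.5, 59.2 and 68.8, while Grin2b, the GluN2B subunit, had 41.8, 27.8 and 20.6 against 207.0, 270.7 and 339.4. Among metabotropic glutamate receptors Grm4, a presynaptic receptor of parallel fibres, was higher (120.7, 238.8 and 328.4 against 57.7 to 88.9) and Grm5 lower (201.4, 96.1 and 24.3 against 666.9 to 957.1). Gria4 was higher by 1.88, and Gria2 and Gria3 were lower in all 3 arrays but by less than 1 on their brightest probe sets. The other Gria2 probe sets above the filter disagreed, at -1.04, which was separated downward, and 0.48. Of 20 glutamate receptor subunits tested 3 were separated upward, 3 downward and 14 not separated.

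Other families split in the same manner. Syt2, the fast synaptotagmin of hindbrain and cerebellar synapses, had 493.3, 371.5 and 466.3 against 42.8, 68.7 and 114.9, a difference that was 1.43 on the median of its probe sets. Syt1, the main forebrain synaptotagmin, had 1331, 1596 and 1942 against 3162, 3686 and 4231. Kcnc1, a fast potassium channel of granule cells, had 1840.5, 1872 and 2768 against 402.6 to 753.0, opposite to Kcnc2. Atp2a3, a calcium pump of Purkinje cells, had 118.3, 403.3 and 400.4 against 32.1 to 57.1, and Atp2a2, the pump of most neurons, overlapped. In the cerebellin family Cbln1 and Cbln3 were separated upward; Cbln2 and Cbln4 overlapped, and both were lowest in Z2 at 0.7 and 5.8. Slc17a7, the vesicular glutamate transporter VGLUT1, was lower (20.1, 34.2 and 46.1 against 63.7 to 145.4) on a dim probe set.

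**Figure D3:**
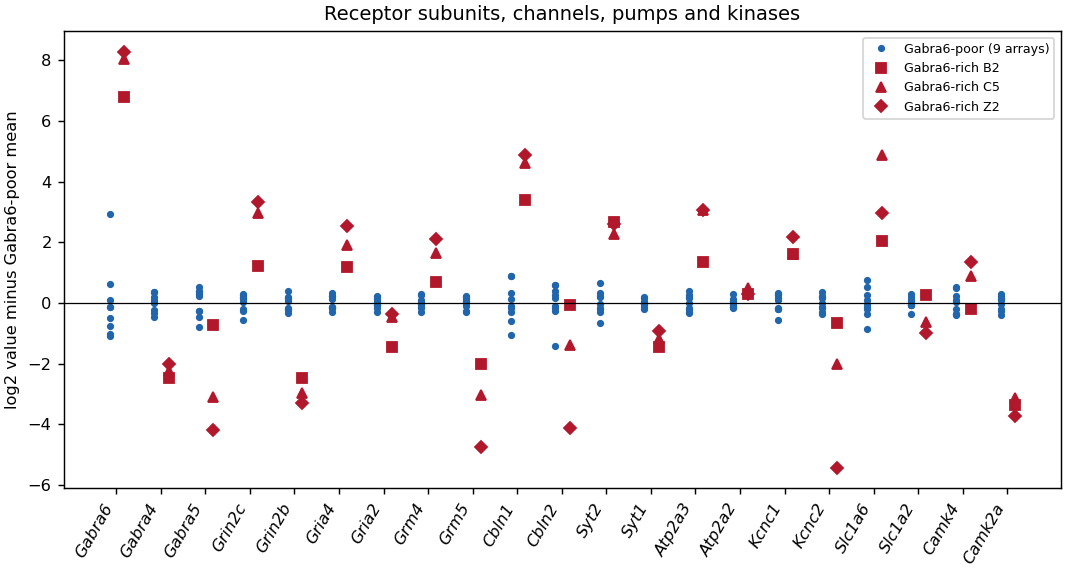
Log2 value of 21 receptor, channel, pump, transporter and kinase genes in each normal brain array, minus the gene's mean over the 9 Gabra6-poor arrays; blue points are Gabra6-poor arrays and red symbols B2, C5 and Z2. Grin2c, Grm4, Syt2, Atp2a3 and Kcnc1 lie above zero in all 3 Gabra6-rich arrays, and Gabra4, Grin2b, Grm5, Syt1 and Camk2a lie below it.

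The 5 upward and 4 downward genes among 18 of the paralog list include the members named here, and 9 were not separated. For the separated genes named or listed here, other probe sets of the same gene that passed the filter on low values gave the same sign in 46 of 47 cases upward and 59 of 64 downward. Of these, 27 and 44 were themselves separated in the same direction, and none in the opposite one. On the median of a gene's probe sets the direction held but the size was smaller by over 1.5 times for 9 separated named genes, Syt2 among them. The others were Egr3 (-2.81), Pde1a (-1.90), Camk2a (-1.91), Grin2b (-1.59), Dcx (-1.02), Mycn (-0.24), Gria4 (0.55) and Slc6a5 (2.23).

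Immediate early genes, which neurons switch on with activity, were separated downward in 5 of 12 and upward in none, beside 4.52% and 3.15% of all genes tested; since the division used the contrast, nothing is read from this. Arc had 20.2, 11 and 18.8 against 27.1, 67.7 and 153.0, and Egr1 685.0, 480.6 and 728.7 against 995.8, 1910.1 and 3382. Egr2, Junb and Homer1 were the others, and Fos overlapped at 327.1, 222.6 and 381.5 against 64.0 to 542.8. Genes of immature neurons were also lower: Sox11 had 55.9, 47.7 and 45.9 against 170.6, 217.1 and 390.1, and Dcx, doublecortin, 30.1, 17.8 and 18.5 against 51.0, 89.7 and 199.8. With Ccnd2 and Mycn they were the 4 of 9 cell cycle and precursor genes separated, all downward, and nothing is read from this count either.

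Glial, vascular and barrier genes mostly overlapped. None of 11 oligodendrocyte, 7 oligodendrocyte precursor, 7 endothelial, 9 meningeal and mural, and 14 choroid plexus and ependyma genes was separated. Of 9 microglia genes Cx3cr1, the fractalkine receptor, was separated downward, at 70.1, 59.5 and 39.7 against 85.9, 127.1 and 175.4. These counts stand beside 3.15% upward and 4.52% downward of all genes tested, and nothing is read from them. The mean log2 level of some of these lists moved with single arrays. The oligodendrocyte score was highest in B2 (9.50) and lowest in C2 (7.44). The meningeal and mural score was highest in B2 (7.83, against 5.96 to 7.07 in Gabra6-poor arrays). For 2 lists C5 and Z2 lay below all Gabra6-poor arrays and B2 among them. The microglia score was 7.35, 6.19 and 5.94 in B2, C5 and Z2 against 6.75 to 7.93. The oligodendrocyte precursor score was 7.32, 6.45 and 6.25 against 6.82 to 8.15. The part of these lists in the regional differences was not tested. No blood or pituitary gene of the list passed the filter on low values; Hba-a1 was at most 11.9 on any of the 12 arrays.

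Within the Gabra6-rich side the 3 arrays were not alike. B2 was the lowest of the 3 in 349 of the 439 genes separated upward (79.5%) and the highest in 420 of the 630 separated downward (66.7%), and Z2 was the lowest in 411 of the latter. B2 also carried genes of the medulla and pons. Slc6a5, the glycine transporter of inhibitory brain stem and spinal neurons, had 745.5 in B2, 134.8 in C5 and 62.3 in Z2 against at most 16.8, and Glra1, the glycine receptor alpha subunit, 560.8, 101.9 and 7.5 against at most 43.2. Slc17a6, the vesicular glutamate transporter VGLUT2 of brain stem and thalamus, followed the same order, 1052, 433.4 and 5.3. It overlapped between the sides, however, with 141.1 to 922.7 in the Gabra6-poor arrays, the highest in B7. Z2 was low for these and for the choroid plexus: Ttr, transthyretin, had 9560 in B2 and 9234 in C5 but 195.6 in Z2. Low Ttr was not particular to Z2. The Gabra6-poor arrays ran from 32.8 to 9185, with 202.6 in A6, 32.8 in B1 and 60.2 in C1. These genes were named after their values were seen, except Slc6a5, Slc17a6 and Ttr.

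None of 8 thalamus and 11 hypothalamus genes was separated, nor any of 10 mTOR complex genes. Slc6a5 was the 1 brain stem transmitter gene of 9 separated (upward), and Cdhr1 the 1 olfactory bulb gene of 2 (downward). Beside the 3.15% upward and 4.52% downward of all genes tested, nothing is read from these counts. The mean log2 level of the mTOR complex list was 7.05 to 7.18 in the Gabra6-rich arrays and 6.50 to 6.99 in the Gabra6-poor arrays, which did not overlap.

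Within the Gabra6-poor side, several further groups of genes followed single arrays, and the genes in this paragraph were picked after their values were seen. Cdhr1 and Tbx21, genes of olfactory bulb mitral and tufted cells, had 548.6, 381.0 and 497.9, and 25.8, 27.5 and 27.7, in A6, B6 and C6, against at most 133.2 and 6.6 in the other Gabra6-poor arrays. Synpo2, used here as a thalamic gene, was high in B7 at 207.2 and C3 at 186.5, with 89.4 in B4, and Tcf7l2, a thalamic and midbrain factor, was highest in B7 (359.0) and B4 (329.9). Pmch, the melanin-concentrating hormone of the lateral hypothalamus, had 1141 in B7, 875.1 in C1 and 420.9 in C3 and at most 21.1 in the other 6. Avp, vasopressin, had 525.7 in C1, 352.5 in B7 and 124.5 in B1 against at most 16.7. C6 carried midbrain and raphe genes, with 238.5 for the dopamine transporter Slc6a3, 155.8 for the serotonin-synthesising enzyme Tph2 and 65.6 for the serotonin transporter Slc6a4; it was also the Gabra6-poor array with the highest Gabra6, Cbln3, Pcp2 and Car8. C2 had 274.8 for Mki67, a proliferation gene, and 176.2 for Atoh1, the proneural factor of granule cell precursors, where the other 8 had at most 53.7 and 21.1. A medulloblastoma array has the same code and genotype label as C2. The medians of Mki67 and Atoh1 were 1430 and 1111 in the medulloblastomas, against 705.2 and 6.8 in the gliomas. Whether the C2 brain piece held tumour cells was not tested, so these genes are not read as regional. Without C2 the separated genes numbered 495 upward and 638 downward.

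**Figure D4:**
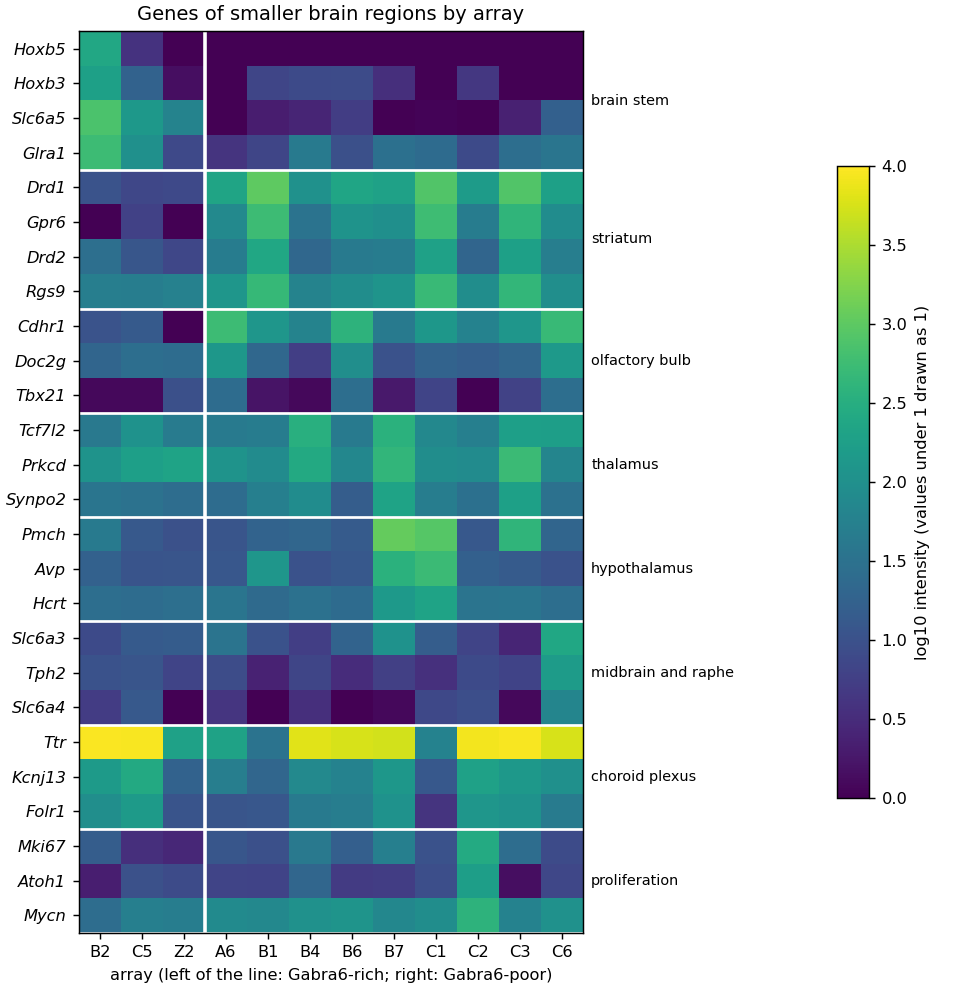
Log10 intensity of 26 genes of smaller brain regions and of proliferation in each normal brain array, values under 1 drawn as 1; the white line divides the Gabra6-rich from the Gabra6-poor arrays and the words at the right name the region a gene is a marker for. Single arrays or groups of 3 stand out: B2 for Hoxb5, B1, C1 and C3 for Drd1 and Gpr6, A6, B6 and C6 for Cdhr1, B7, C1 and C3 for Pmch, and C6 for Tph2.

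Rictor genotype comes from the labels and not from the division, so it was tested within the Gabra6-poor side, between 4 arrays labelled Rictor-null and 4 labelled Rictor-heterozygous. No gene passed limma's test at an adjusted p of 0.05 (0.0% of 13927), and 505 had an unadjusted p under 0.05. Rictor, the targeted gene, had 213.3 in C2, 222.1 in C3, 238.4 in C6 and 270.5 in C1, labelled null, and 250.5 in B7, 251.7 in B1, 252.5 in B6 and 265.7 in B4, labelled heterozygous. The groups overlapped through C1, and the difference of -0.11 did not pass (exact two-sided permutation p = 0.229; smallest possible p = 0.0286). The targeted gene therefore gave no check of the null labels in these brains, and which exons its probe sets read was not tested. On the median of its probe sets the difference had the opposite sign, 0.24 (exact permutation p = 0.343). The Gabra6-rich arrays had more, with 388.6 in B2, 443.9 in C5, labelled null, and 580.0 in Z2. That difference of 0.89 was below the size for separation, while of the other 3 Rictor probe sets above the filter 1 was separated upward (1.01) and the others gave 0.94 and 0.26. Mtor overlapped, at 415.7, 426.9 and 394.1 against 350.4 to 456.0.

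The 10 medulloblastomas and 6 gliomas took no part in the division, so the regional genes could be tested there. Every normal brain array except Z2 shares its code and genotype label with a tumour array. The labels do not say whether a shared code means a shared animal, so whether tumours and brains are independent could not be checked. Codes given without a tumour type are those of normal brain arrays. All tumours carried hGFAP-Cre::p53-/-. The medulloblastomas were 5 Rictor-/-, 2 Rictor+/- and 3 with no Rictor allele named, and the gliomas 1, 4 and 1, so genotype was unevenly spread and entered the fit as a term. Glioma A4 was the 1 glioma with no Rictor allele named. Medulloblastoma arises in the cerebellum, and the comparison asks which of the regional genes also distinguished the tumours. With limma 1270 genes were higher in medulloblastoma (9.12% of 13927) and 1454 lower (10.4%) at an adjusted p under 0.05; the total was 1419 in place of 2724 without glioma A4. Of the 439 genes separated upward in normal brain 52 (11.8%) were higher and 43 (9.79%) lower, and of the 630 separated downward 73 (11.6%) were higher and 100 (15.9%) lower. Without glioma A4 the counts of the first set were 35 higher and 20 lower and those of the second 41 higher and 68 lower. In that setting 587 of all 13927 genes tested were higher and 832 lower.

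Among the granule neuron genes 9 of 19 were higher in medulloblastoma and none lower, beside 9.12% and 10.4% of all genes tested, and all 9 encode transcription factors. The lists were chosen with earlier results of these data known, so the shares of lists in the tumours are descriptions and not tests. Neurod1 was higher by 4.86 (SE 0.74, limma adjusted p = 0.000221), Pax6 by 2.79, Zic1 by 2.45, Zic5 by 3.61 and Barhl2 by 3.41, each called under every alternative run; on the median of its probe sets Pax6 was higher by 0.90. Zic2, Zic4, Barhl1 and Eomes were the rest, and Eomes was called in 14 of 23 alternatives (limma adjusted p = 0.0384; 0.0192 to 0.156 over its alternatives, the highest without glioma C3). The terminal markers of granule neurons did not pass. Gabra6 ranged from 8.1 to 1638 with a median of 42.2 in medulloblastoma and from 7.3 to 1014 with a median of 116.8 in glioma, a difference of 0.14 (SE 1.28, limma adjusted p = 0.955). The tumour types overlapped for it, and likewise for Cbln3 (0.35, SE 1.11) and Pcp2 (0.26, SE 1.10). Of 15 Purkinje cell genes Lhx1 was higher by 4.29 (limma adjusted p = 2.03e-05) and Ebf2 by 1.52 (limma adjusted p = 0.0476), the latter called in 9 of 23 alternatives (limma adjusted p 0.0168 to 0.214, the highest without glioma A4). Both are factors of early neurons as well. They are 13.3% of the Purkinje cell genes, near the 9.12% of all genes tested, so nothing is read from their number.

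Patterning genes of midbrain and hindbrain split in the tumours, with 4 of 14 higher in medulloblastoma (28.6%, beside 9.12% of all genes tested) and 5 lower (35.7%, beside 10.4%). En2 was higher by 1.33 (SE 0.34, limma adjusted p = 0.0116), which was lost without glioma A4 (limma adjusted p = 0.118; 0.00849 to 0.118 over its alternatives), and Mab21l1, a gene of cerebellar precursors, by 5.03. Without glioma A4 only 2 of these genes were called higher. Irx1, Irx2, Irx3 and Irx5, which averaged 1.39 to 2.14 higher in the Gabra6-rich brains, were lower in medulloblastoma, with differences of -1.39 to -2.62, and Irx5 was not called without glioma A4 (limma adjusted p = 0.0632). Of 17 forebrain patterning genes 4 were higher in medulloblastoma (23.5%, beside 9.12% of all genes tested) and 1 was lower (5.88%, beside 10.4%). Without glioma A4 or without glioma C3 the count higher was 2, where 587 and 838 of all genes tested were higher. Nothing is read from these counts. Neurod6, with a difference of -3.05 in the Gabra6-rich brains, was higher in medulloblastoma by 4.17 (SE 0.64, limma adjusted p = 0.000218), with a range of 9.7 to 426.5 and a median of 220.6 against 0.5 to 27.7 and a median of 6.8 in glioma. Hpca, the calcium sensor hippocalcin, was higher by 4.81 and Bcl11a by 3.08 (1.21 on the median of its probe sets), both opposite in sign to the regional difference. Tbr1 and Ddn did not pass (0.36, SE 0.26, and -0.57, SE 0.91).

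**Figure D5:**
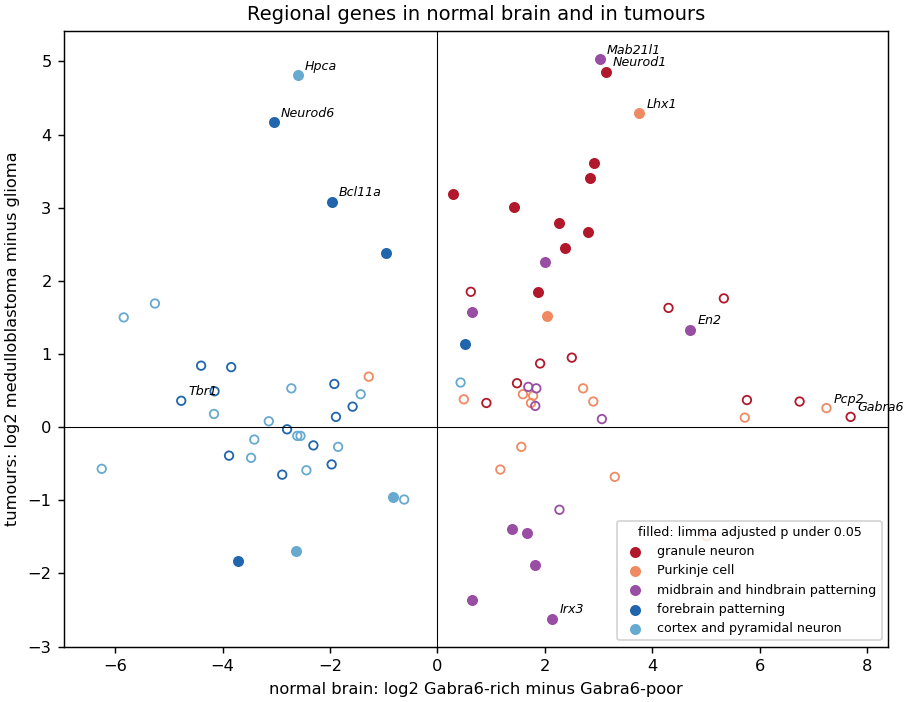
Each point is a gene of 5 lists; the horizontal axis is its log2 difference between Gabra6-rich and Gabra6-poor normal brain and the vertical axis its log2 difference between 10 medulloblastomas and 6 gliomas from limma, with filled points at an adjusted p under 0.05. Gabra6 and Pcp2 lie far right near zero on the vertical axis (0.14 and 0.26), while Neurod6, Hpca and Bcl11a lie at the upper left.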

How the data were processed

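The deposited values were intensity on a linear scale, 1 per probe set and array (45101 probe sets, 28 arrays), made by the authors with MAS5 and GCOS per the submitters' processing notes, versions not given in the sources used here. The mean of every array, trimmed by 2% at each end, was 100, array medians were 18.8 to 27.8, and no columns were identical. Precision is limited by how few arrays there are.

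The platform annotation supplied gene symbols: 34945 had 1 symbol, 932 several and 9211 none, and 64 controls were left out. Each of 18193 genes was represented by its probe set of highest mean, and 13927 with a mean above the 30th percentile (3.89) were tested. Values were taken as log2 of the deposited intensity plus 6.3, the 25th percentile of the table.

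Normal brain arrays were divided at a Gabra6 intensity of 1000. The 4 markers (Gabra6, Cbln3, Pcp2 and Neurod6), lists, named-gene rule and comparisons were chosen with earlier results of these data known. Named genes were the 4 markers, the 10 largest separated differences in each direction (clone and predicted names skipped), up to 4 separated members of each list, up to 2 of the highest mean for lists with fewer than 2 separated, and Rictor (85 genes); others were chosen after their values were seen. Medulloblastoma was compared with glioma (Rictor genotype as a term) and Rictor-null with heterozygous Gabra6-poor brain by limma (lmFit and eBayes with a trend, two-sided, Benjamini-Hochberg adjusted p under 0.05), and Rictor by an exact permutation test. Scripts were tested on simulated data. Alternatives were other pseudocounts, filters, probe set rules, quantile normalization, title prefix, genotype, replicate block and leaving out each array. Software was limma 3.58.1 in R 4.3.3, and numpy 2.4.6, scipy 1.17.1, pandas 2.3.3 and matplotlib 3.10.9 in Python 3.11.15.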

Additional observations from a re-analysis of the deposited data

Results flagged for a closer look

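Among the 9 Gabra6-poor arrays, 112 values (27 list scores and 85 named genes) were checked for 1 array far from the others. The measure was Dixon's ratio (critical value 0.493 for 9 arrays), which chance passes about 1 time in 20, and 10 passed. Gene ratios were taken on log2 values, and intensities are given below. Gabra6 set the division, many named genes were chosen for separating the sides, and list scores contain named genes. The checks are therefore not independent, and nothing is read from the count of 10. No explanation was tested.

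C6 stood apart for 4 hindbrain genes. Its intensity was 116.3 for Gabra6 (1.1 to 18.3 in the other 8), 55.8 for Cbln3 (4.4 to 11.6), 400.0 for Car8 (81.0 to 159.1) and 16.8 for Slc6a5 (0.3 to 5.4).

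C2 stood apart for Ccnd2, a cyclin, at 1022.8 (216.3 to 432.8 in the others), and for Mycn, a proto-oncogene, at 379.5 (58.6 to 118.4), and had the lowest oligodendrocyte score, 7.44 (8.30 to 9.05).

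A6 had the lowest mTOR complex score, 6.50 (6.81 to 6.99), and the lowest Slco1a4, a transporter of brain endothelium, at 186.2 (330.4 to 486.2). C1 had the lowest endothelial score, 5.51 (6.00 to 6.46).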

How the results depend on the processing

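The 62 separated named genes kept their direction on the median of probe sets and under quantile normalization. The other alternatives (pseudocount, title prefix, genotype, each array left out) could not reverse a separated gene, so their directions say nothing. Sizes moved. Over all these alternatives 1525 values of the named genes stayed within 1 SD of the Gabra6-rich arrays and 175 did not. Of the 175, 38 were within the YZ2 arrays and 34 among Rictor-heterozygous arrays. Among the latter Gdf10 was 1.42 in place of 3.25 and Kcnc2 -0.70 in place of -2.71. The 1069 separated genes became 2287 within the YZ2 arrays, 1792 among Rictor-null arrays and 301 at a difference of at least 2; each array left out gave 1061 to 1673, the highest without B2. Pseudocount 25 gave 781. Called genes between medulloblastoma and glioma numbered 2724, and 1419 (without glioma A4) to 2972 with each array left out; the cause was not tested. Between Rictor genotypes in Gabra6-poor brain 0 were called, and 0 to 1 with each array left out; the 1, without C3, was Pik3r1 (-1.20, limma adjusted p = 0.0456), a PI3K subunit. The Rictor difference of -0.11 ran from -0.18 to -0.07 with each array left out and was 0.24 on the median of probe sets.

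With the code number as a replicate block (duplicateCorrelation), 0 genes were called and 1118 had an unadjusted p under 0.05, against 505 without it. Only 2 pairs share a number, their deviations correlated at 0.234 and 0.41, and the labels do not say that numbers pair arrays, so the block was not used.

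Leaving out Z2 leaves no wild-type array and gave 1090 separated genes. Each genotype has 1 Gabra6-rich array at most, so within a genotype region and array cannot be told apart.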

Other observations

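Some further genes followed the same division, and those named here were picked after their values were seen. Skor1, a transcriptional corepressor, was separated upward by 3.88. Dao, the D-amino acid oxidase that degrades D-serine in hindbrain astrocytes, was separated upward by 2.81, and Aldoc, which stripes Purkinje cells and also marks astrocytes, differed by 0.71 without reaching the size for separation. Kcnq5, a potassium channel subunit, was separated downward by a difference of -3.94, Ptk2b, a tyrosine kinase, by -3.74 and Kalrn, a regulator of dendritic spines, by -3.05.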
